A study of Mus musculus with 26 samples.

Results

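The genes of glycolysis and of the response to hypoxia were followed in RNA-seq libraries of mouse mammary tumor cells with and without the long noncoding RNA MaTAR25. The 36 genes were chosen by function out of 45318 genes counted. They comprise 4 glucose and lactate transporters, 17 enzymes from hexokinase to lactate dehydrogenase listed by isoform, 3 kinases that set glycolytic flux, the hypoxia factor Hif1a with 2 of its prolyl hydroxylases, and 9 further genes that are commonly induced by hypoxia. All 36 were present in the count files. Of these, 34 passed the filter on low counts and were tested, while Slc2a3 and Slc16a3 did not pass it.

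Polyadenylated RNA was sequenced from 4T1 cells, a highly aggressive mammary carcinoma line of BALB/c mice, in 2 Control, 3 KO1 and 4 KO2 libraries. Control cells are labelled wild type, and the study's methods give a Renilla luciferase sgRNA as the negative control of its editing. KO1 and KO2 are MaTAR25 knockout lines in which CRISPR/Cas9 with a pair of sgRNAs removed DNA over the transcription start site. Each was grown from a single sorted cell, so within 1 clone the deletion and the origin of the clone cannot be told apart. The study's methods describe its control cells as single-cell clones too. If the Control libraries came from 1 clone, its own traits would appear as changes shared by KO1 and KO2. Such changes could not be told apart from effects of the deletion. All cells were kept in DMEM with serum, and the labels give no treatment and no change of oxygen. Nothing in the labels says that the libraries of a group came from separate cultures, so the p-values measure only the spread between these libraries, which may be technical. ChIRP-seq, in which biotinylated oligos pull down an RNA with the DNA it sits on, supplied 4 peak lists for MaTAR25. These are the even, odd and total oligo pools in 4T1 cells and the total pool in NDL cells. The labels give the NDL cells as FVB with the genotype MMTV-PyMT, and the study's methods give MMTV-Neu-NDL. The study's supplement names cNeu cells for this ChIRP-seq, which the methods list among the cultured cell lines. Each list was made by the authors over pooled replicates.

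Glycolysis splits glucose into a pair of triose phosphates and oxidises these to pyruvate, and tumor cells often reduce much of that pyruvate to lactate and export it even when oxygen is present. When oxygen is low, prolyl hydroxylases stop marking HIF-1α for destruction by the VHL ubiquitin ligase. HIF-1α then pairs with ARNT and binds the core sequences ACGTG and GCGTG near its targets, among which are most genes of glycolysis, Vegfa and the hydroxylase Egln3. Several of the same enzyme genes also answer to MYC and to other growth signals, and mRNA levels alone do not report flux.

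Between 25367211 and 61110585 counts per library fell on genes. MaTAR25 (1200007C13Rik) was counted 35 and 30 times in Control, while the KO1 libraries had 2, 7 and 0 counts of it and those of KO2 had 11, 1, 9 and 6. Its level was lower in each of the 7 KO libraries than in both Control libraries (log2 fold change -2.63 ± 0.82 SE, edgeR adjusted p = 0.056). That call was lost without Control replicate 1 (adjusted p = 0.260) or replicate 2 (adjusted p = 0.300). The epithelial genes Epcam, Cdh1, Krt7, Krt8, Krt18 and Cldn4 stood above 100 CPM in every library, where CPM is the count scaled to the TMM library size. Of the other 2 epithelial markers, Krt14 was at 1.23 to 17.1 CPM, and Cldn3 was at 358 and 346 CPM in Control, 336 to 606 CPM in KO1 and 12.8 to 171 CPM in KO2. Of 5 fibroblast, 5 endothelial, 6 immune and 3 erythroid markers, 3 reached 1 CPM in any library, Pdgfra, Cd68 and Cdh5, and the fibroblast genes Dcn, Lum, Col3a1 and Thy1 had no count. The summed immune markers, nearly all of it Cd68, were at 3.20 to 4.24 CPM in Control, 11.5 to 28.5 in KO1 and 1.90 to 20.4 in KO2, and the summed fibroblast markers, all of it Pdgfra, at 17.7 to 21.8, 21.0 to 39.8 and 11.7 to 46.9. The 8 epithelial markers summed to 5352 to 5538 in Control, 6734 to 8316 in KO1 and 2687 to 4796 in KO2. The part of these levels in the results was not tested. Libraries of the KO2 clone were less alike than the others, with correlations across genes of 0.960 to 0.979 against 0.987 to 0.991 within KO1 and 0.996 between the Control libraries.

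Most enzymes of glycolysis rose in the knockout cells, and several textbook hypoxia genes did not rise with them. Levels are in CPM, and a gene was called when edgeR's quasi-likelihood test gave a Benjamini-Hochberg adjusted p under 0.1 over all 15023 genes tested. With the 7 KO libraries as 1 group, 15 of the 34 genes were called, 13 higher and 2 lower, where 22.6% of all genes tested were called in either direction, 11.9% higher and 10.7% lower. All 11 enzymes called, out of 17, were higher. The median log2 fold change was 0.99 over the 17 enzymes, 0.64 over all 34 genes and 0.06 over all genes tested. The 12 genes of the hypoxia factor, its hydroxylases and the hypoxia-inducible set had 1 gene called higher, Ankrd37, and 2 called lower, Vegfa and Ndrg1, with a median of -0.12.

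Within the clones, KO1 had 14 of 34 genes called, 11 higher and 3 lower (31.6% of all genes tested were called in either direction, 15.9% higher and 15.7% lower). KO2 had 17 called, 15 higher and 2 lower (31.4% of all genes tested, 16.5% higher and 15% lower). Both clones were compared with the same 2 Control libraries, so these counts are not independent. In all, 10 of the 17 enzymes were called higher in KO1 and also in KO2, the exception among the 11 being Eno1, which was not called in KO1. Of all genes tested, 9.91% were called higher in both clones. The calls leaned on having both Control libraries, since 4 genes were called without Control replicate 1 (Pfkl, Ldha, Vegfa and Ndrg1) and 5 without replicate 2 (the same genes with Tpi1), where 2.95% and 3.61% of all genes were called.

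**Figure D1:**
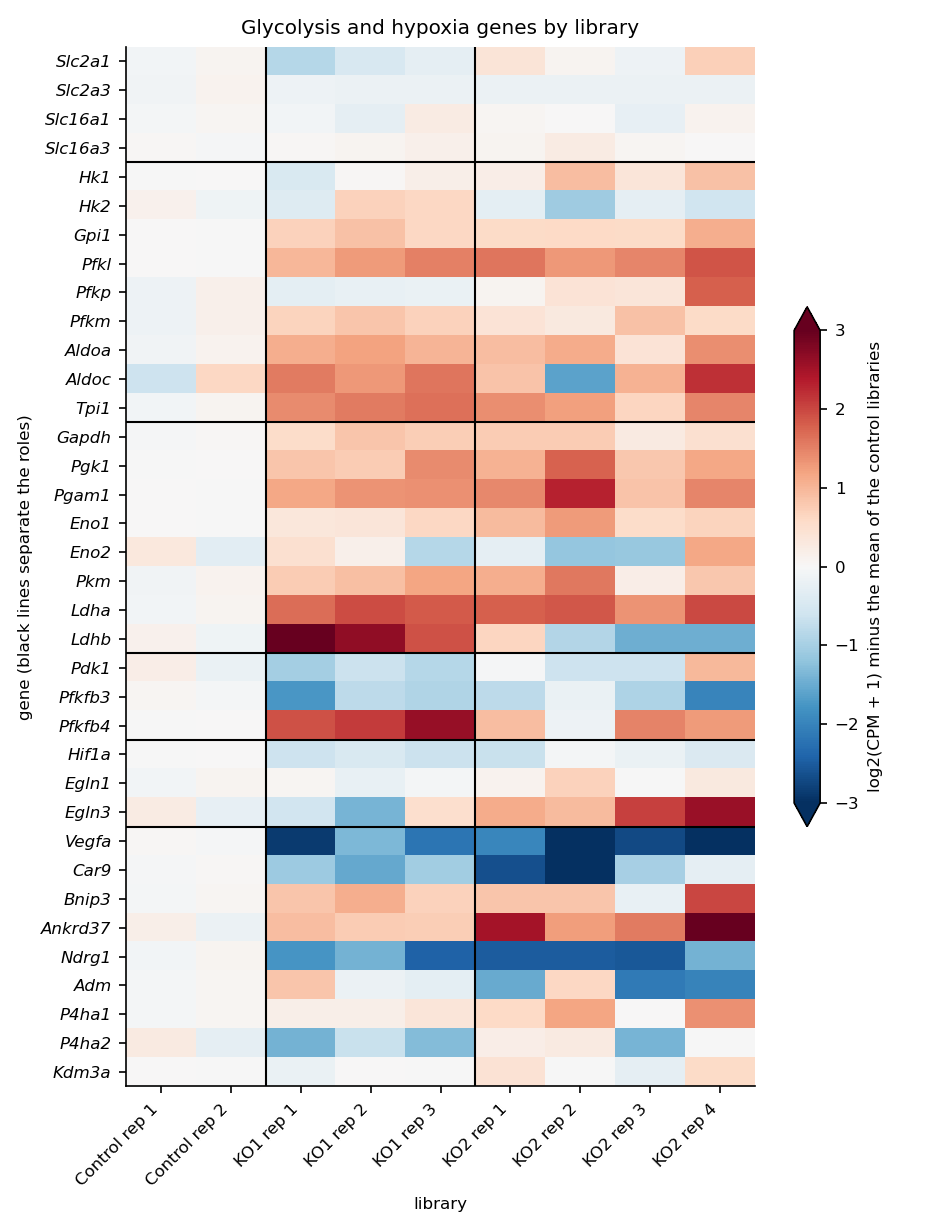
The colour gives log2(CPM + 1) of each of the 36 genes in each of the 9 libraries minus the mean of the 2 Control libraries, with genes grouped by role from transporters at the top to hypoxia-inducible genes at the bottom. The rows of Gpi1, Pfkl, Aldoa, Tpi1, Pgk1, Pgam1 and Ldha are red in all 7 KO libraries, and those of Vegfa and Ndrg1 are blue in all 7.

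Summed over the 17 enzymes, Control libraries held 4576 and 4958 CPM. KO1 libraries held 8475, 9684 and 10320 CPM, and KO2 libraries 9875, 11967, 6912 and 10240 CPM. Every KO library thus lay above both Control libraries, with KO2 replicate 3 the lowest of the 7. Of the 11 enzymes called, 7 had their lowest KO value in KO2 replicate 3. The count of enzymes called stayed at 11 without that library, where 22.3% of all genes tested were called. The 12 hypoxia genes summed to 1169 and 1229 CPM in Control, between 662 and 728 CPM in KO1 and between 729 and 1150 CPM in KO2. Much of that difference was Ndrg1, without which the sums were 754 and 761 CPM in Control, 545 to 580 CPM in KO1 and 653 to 985 CPM in KO2, and 6 of the 12 genes had a log2 fold change above 0. In bulk RNA, a change in the number of cells that express a gene and a change of RNA per cell cannot be told apart.

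The promoters of 8 genes are shown because the main changes rest on them, namely the 7 with the largest log2 fold changes among those called higher and Vegfa, which had the largest among those called lower. Each is the stretch of 250 bases before the RefSeq start nearest to the gene's start (GRCm38), written 5′ to 3′ on the gene's strand, and capitals mark ACGTG or GCGTG on either strand, the core that HIF-1 binds. CACGTG holds ACGTG on both strands and was counted as 1 stretch.
Ankrd37 (chr8:45999851-46000100, minus strand): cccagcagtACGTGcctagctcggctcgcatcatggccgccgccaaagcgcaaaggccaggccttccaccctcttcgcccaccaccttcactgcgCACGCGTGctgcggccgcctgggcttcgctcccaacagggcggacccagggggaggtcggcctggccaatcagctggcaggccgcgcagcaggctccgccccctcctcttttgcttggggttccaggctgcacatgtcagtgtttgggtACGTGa
Pfkfb4 (chr9:108991652-108991901, plus strand): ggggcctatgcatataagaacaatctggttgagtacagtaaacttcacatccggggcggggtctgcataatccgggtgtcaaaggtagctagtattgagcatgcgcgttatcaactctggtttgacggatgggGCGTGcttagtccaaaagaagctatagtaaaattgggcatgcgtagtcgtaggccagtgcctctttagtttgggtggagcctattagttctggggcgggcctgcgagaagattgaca
Ldha (chr7:46845554-46845803, plus strand): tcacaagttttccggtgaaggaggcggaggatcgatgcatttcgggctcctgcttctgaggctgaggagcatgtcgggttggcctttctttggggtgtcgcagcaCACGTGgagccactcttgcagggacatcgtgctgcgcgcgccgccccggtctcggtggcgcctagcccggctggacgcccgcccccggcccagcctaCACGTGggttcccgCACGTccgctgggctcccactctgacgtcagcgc
Pgam1 (chr19:41911621-41911870, plus strand): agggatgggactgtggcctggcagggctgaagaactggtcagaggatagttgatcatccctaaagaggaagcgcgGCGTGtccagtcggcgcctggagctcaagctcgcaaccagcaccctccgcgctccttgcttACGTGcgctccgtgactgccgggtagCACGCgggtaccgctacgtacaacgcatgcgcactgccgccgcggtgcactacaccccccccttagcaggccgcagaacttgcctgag
Pfkl (chr10:78009808-78010057, minus strand): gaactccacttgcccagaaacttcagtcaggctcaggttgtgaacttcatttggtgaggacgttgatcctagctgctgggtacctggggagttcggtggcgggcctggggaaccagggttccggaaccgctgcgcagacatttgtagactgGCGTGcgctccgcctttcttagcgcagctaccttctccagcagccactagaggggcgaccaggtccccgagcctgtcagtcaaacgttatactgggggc
Tpi1 (chr6:124814159-124814408, minus strand): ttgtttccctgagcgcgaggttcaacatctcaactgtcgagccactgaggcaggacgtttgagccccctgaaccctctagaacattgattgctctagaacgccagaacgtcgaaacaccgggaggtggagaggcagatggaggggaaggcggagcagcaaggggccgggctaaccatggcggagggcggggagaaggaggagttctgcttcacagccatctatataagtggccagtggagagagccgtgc
Pgk1 (chrX:106186850-106187099, plus strand): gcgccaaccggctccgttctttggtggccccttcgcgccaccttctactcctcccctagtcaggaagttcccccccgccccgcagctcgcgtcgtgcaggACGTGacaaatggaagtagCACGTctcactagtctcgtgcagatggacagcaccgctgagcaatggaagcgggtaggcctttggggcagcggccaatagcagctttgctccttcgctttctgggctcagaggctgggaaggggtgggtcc
Vegfa (chr17:46032378-46032627, minus strand): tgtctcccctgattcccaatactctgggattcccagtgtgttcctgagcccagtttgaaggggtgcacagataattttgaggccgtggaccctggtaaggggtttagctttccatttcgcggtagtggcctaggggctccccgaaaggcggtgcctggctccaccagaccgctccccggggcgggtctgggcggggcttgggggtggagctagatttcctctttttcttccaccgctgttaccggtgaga
The Ldha promoter held 3 such stretches, starting 145, 48 and 34 bases before the start, the farther 2 of which are CACGTG. Ankrd37 and Pgam1 also held 3 stretches, Pgk1 2, and Pfkfb4 and Pfkl 1 each. Tpi1 and Vegfa held none in this window, which says only that these letters are absent there. In the 300-base windows of the RefSeq table (250 before and 50 after a start), 31 of the 34 genes with an entry held ACGTG or GCGTG on either strand (91.2%), against 46.7% of the 27025 genes in the table and 66.8% of the 10504 genes tested that have an entry. Vegfa was among these 31, with matches over the windows of its 2 RefSeq starts, while Tpi1 had no match in any window. With ACGTG alone, 23 of 34 genes had a match (67.6%), against 28.8% of those tested genes. A match is a description of the sequence and not a bound site.

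Of the transporters that passed the filter, none was called in KO against Control. Slc2a1 encodes GLUT1, the main basal glucose transporter of proliferating cells. It was measured at 110 and 123 CPM in Control, 63.9, 82.9 and 96.6 CPM in KO1 and 153, 123, 105 and 193 CPM in KO2. The groups overlapped, and the log2 fold change of all KO libraries was 0.00 ± 0.35 SE (adjusted p = 0.997). All 3 KO1 libraries lay below all 4 KO2 libraries, and Slc2a1 was called lower in KO1 than in KO2 (-0.82 ± 0.22 SE, edgeR adjusted p = 0.045). Without KO1 replicate 1 or KO1 replicate 2 that call was lost. Slc16a1, which encodes the lactate and pyruvate carrier MCT1, stood at 196 and 209 CPM in Control, between 167 and 239 CPM in KO1 and between 170 and 219 CPM in KO2 (-0.02 ± 0.16 SE, adjusted p = 0.960). The hypoxia-linked transporters were all but absent. Slc2a3, the GLUT3 gene, had 2 and 7 counts in Control, 1, 0 and 0 in KO1 and 0 in every KO2 library. With no filter on low counts, edgeR called Slc2a3 lower in KO and in KO2, which rests on these few counts. Slc16a3, the gene of the lactate exporter MCT4, had between 2 and 8 counts in each of the 9 libraries.

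The steps from glucose to triose phosphates showed 5 of 9 genes called higher and none lower, where 11.9% of all genes tested were called higher and 10.7% lower. Gpi1, glucose-6-phosphate isomerase, was at 199 and 198 CPM in Control, 320, 369 and 307 CPM in KO1 and 296, 299, 294 and 422 CPM in KO2 (log2 fold change 0.73 ± 0.17 SE, edgeR adjusted p = 0.019). Pfkl, the liver-type subunit of phosphofructokinase, which commits sugar to glycolysis, was at 204 and 203 CPM in Control. It was at 410, 498 and 582 CPM in KO1 and at 622, 503, 563 and 757 CPM in KO2. Every KO library lay far above both Control libraries, whose SD for Pfkl was 0.653 CPM (1.47 ± 0.22 SE, edgeR adjusted p = 0.0036). The muscle-type subunit Pfkm rose less, from 30.6 and 37.6 CPM to between 54.6 and 61.2 CPM in KO1 and between 41.6 and 62.9 CPM in KO2 (0.64 ± 0.20 SE, edgeR adjusted p = 0.052).

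Aldolase and triose phosphate isomerase followed. Aldoa was at 471 and 553 CPM in Control, 1088, 1174 and 1043 CPM in KO1 and 967, 1111, 675 and 1343 CPM in KO2 (1.05 ± 0.23 SE, edgeR adjusted p = 0.015). Tpi1, which interconverts the triose phosphates, was at 193 and 219 CPM in Control, 548, 606 and 644 CPM in KO1 and 541, 481, 322 and 565 CPM in KO2 (1.36 ± 0.24 SE, edgeR adjusted p = 0.0069). For both genes the lowest KO value, in KO2 replicate 3, still exceeded both Control values. Aldoc, the minor aldolase, ranged from 0.842 to 24.8 CPM over KO2 alone and overlapped with Control. It was not called, but was called higher without KO2 replicate 2 (edgeR adjusted p = 0.0682).

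The hexokinases, which trap glucose in the cell, were not called against Control as 1 group, and the clones went different ways. Hk1 was at 239 and 246 CPM in Control, 176, 249 and 276 CPM in KO1 and 280, 460, 313 and 444 CPM in KO2. Hk2, the inducible hexokinase of tumors and muscle, was at 180 and 152 CPM in Control, 127, 269 and 257 CPM in KO1 and 134, 78.3, 137 and 110 CPM in KO2. The clones did not overlap for Hk1, while KO1 replicate 1 lay among the KO2 libraries for Hk2. Between the clones, Hk1 was lower in KO1 (-0.68 ± 0.22 SE, edgeR adjusted p = 0.072) and Hk2 higher in KO1 (0.92 ± 0.27 SE, edgeR adjusted p = 0.059). The platelet-type phosphofructokinase Pfkp was lower in KO1 than in KO2 as well (-1.09 ± 0.38 SE, edgeR adjusted p = 0.091), with 61.9 to 66.1 CPM in KO1 and 81.6 to 102 CPM in 3 KO2 libraries but 267 CPM in KO2 replicate 4. Against KO2, the call for Hk1 was lost without KO1 replicate 1, KO1 replicate 2, KO2 replicate 2 or KO2 replicate 4, that for Hk2 without KO1 replicate 2, KO1 replicate 3 or KO2 replicate 4, and that for Pfkp without any 1 of the KO1 libraries.

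Isoforms of a step were compared on the scale of CPM per kb of exon. Hk1 made up 48.1 and 53.0% of hexokinase in Control, 49.2, 39.3 and 42.9% in KO1 and 59.4, 80.4, 61.5 and 73.8% in KO2. The KO2 libraries thus had a higher share of Hk1 than all other libraries. Pfkl made up 68.1 and 63.4% of phosphofructokinase in Control, between 74.6 and 80.1% in KO1 and between 76.3 and 82.5% in KO2, so that its share was higher in every KO library than in both Control libraries. In every library, Aldoa made up at least 98.4% of Aldoa and Aldoc. Eno1 made up at least 96.7% of Eno1 and Eno2, and Ldha at least 96.3% of Ldha and Ldhb. A further enolase gene, Eno3, is not among the 36 genes and so not in these shares. Its mean was 58.6 CPM per kb in Control, 128 in KO1 and 40.2 in KO2, where Eno1 was at 72.8, 99.3 and 135. These shares are descriptions without a test.

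**Figure D2:**
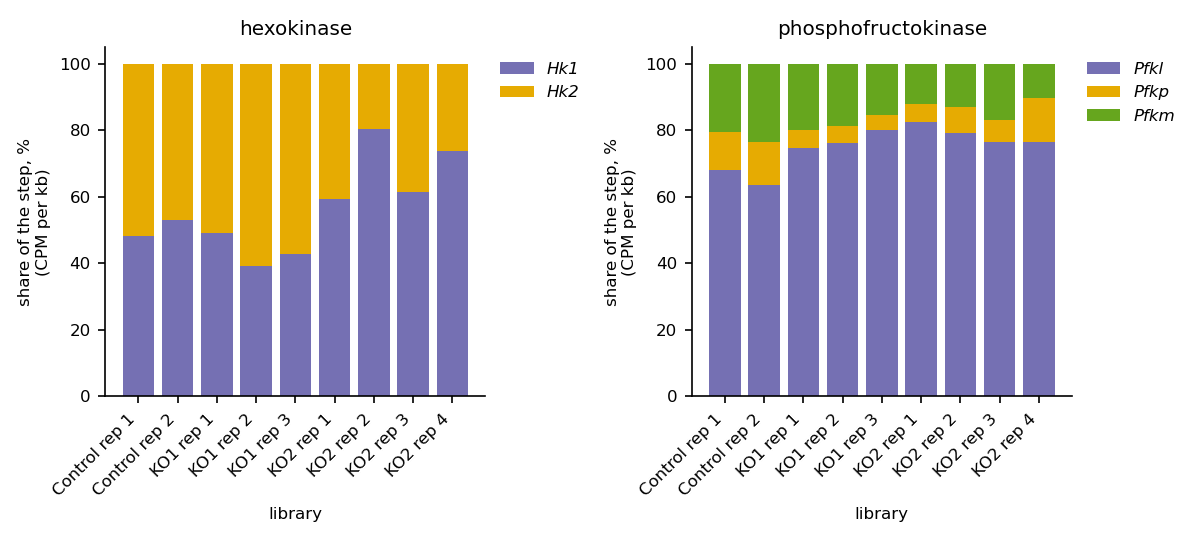
Bars show the share of each hexokinase gene (left) and each phosphofructokinase gene (right) within its step in percent, from CPM per kb of exon, for each of the 9 libraries. Hk1 makes up 59.4 to 80.4% in the 4 KO2 libraries, and Pfkl 74.6 to 82.5% in the 7 KO libraries.

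Of the 8 genes from triose phosphates to lactate, 6 were called higher and none lower, against 11.9 and 10.7% of all genes tested. Ldha (ENSMUSG00000063229, chromosome 7, 46841475 to 46855627 in GRCm38), which reduces pyruvate to lactate, showed the smallest adjusted p of the 34 genes. It was at 379 and 419 CPM in Control, 1284, 1545 and 1421 CPM in KO1 and 1393, 1450, 1020 and 1587 CPM in KO2. The mean was 399 ± 28.4 CPM (SD, n = 2) in Control and 1386 ± 190 CPM (SD, n = 7) in KO, a ratio of 3.47 (log2 fold change 1.79 ± 0.19 SE, edgeR adjusted p = 0.0010). An exact permutation test gave p = 0.0278 for Ldha, two-sided on log2(CPM + 1) and the smallest value that the 36 splits of 9 libraries into 2 and 7 allow. Ldha kept its call with each of the 9 libraries left out in turn. The difference between the clones was 0.06 ± 0.16 SE on the log2 scale (adjusted p = 0.846).

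The other enzymes called in this stretch rose by less. Pgam1, phosphoglycerate mutase, was at 46.3 and 45.2 CPM in Control, 103, 117 and 119 CPM in KO1 and 126, 230, 83.4 and 129 CPM in KO2 (1.50 ± 0.34 SE, edgeR adjusted p = 0.018). Pgk1, which makes the first ATP of the pathway, was at 179 and 185 CPM in Control, 327, 309 and 490 CPM in KO1 and 373, 621, 318 and 409 CPM in KO2 (1.16 ± 0.28 SE, edgeR adjusted p = 0.021). Both genes were above Control in every KO library, and for both KO2 replicate 2 was the highest of the 9. Gapdh, the dehydrogenase often used as a reference gene, was at 494 and 525 CPM in Control, 751, 901 and 856 CPM in KO1 and 869, 862, 617 and 709 CPM in KO2 (0.64 ± 0.17 SE, edgeR adjusted p = 0.028). Pkm, pyruvate kinase, had the highest level per kb of the 36 genes in each group and went from 1481 and 1687 CPM to 2680, 2977 and 3572 CPM in KO1 and 3368, 4771, 1822 and 2783 CPM in KO2 (0.99 ± 0.30 SE, edgeR adjusted p = 0.051). Eno1, an enolase gene, went from 395 and 388 CPM to between 495 and 602 CPM in KO1 and between 573 and 953 CPM in KO2 (0.72 ± 0.25 SE, edgeR adjusted p = 0.079). Eno1 lost its call without either Control library and also without KO1 replicate 3 or KO2 replicate 1.

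Counts of these enzymes carry an uncertainty from processed copies elsewhere in the genome. Of the 50-base words in the exons of Pgam1, 83.5% also occurred elsewhere on the GRCm38 chromosomes, and so did 68.3% of those of Pgk1. The shares were 24.6% for Gapdh, 20.7% for Eno1, 17.4% for Pkm, 15.0% for Ldha and 14.0% for Tpi1, while Pfkl had 0.257%. Reads that fit several places were counted on no gene, and they made up 24.1% of all counts in both Control libraries and between 25.2 and 27.5% in the KO libraries. Their part in these results was not tested.

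Ldhb and Eno2, the minor isoforms, were low and uneven. Ldhb, whose enzyme favours the oxidation of lactate, was at 2.02 and 1.56 CPM in Control, 23.2, 16.6 and 9.50 CPM in KO1 and 3.35, 0.505, 0 and 0 CPM in KO2. KO1 lay above all other libraries, and Ldhb was called between the clones (log2 fold change 4.10 ± 1.36 SE, edgeR adjusted p = 0.081). This call was lost in DESeq2, without any 1 of the KO1 libraries and without KO2 replicate 2. Eno2, the neuronal enolase, was between 2.95 and 18.6 CPM in all libraries (-0.03 ± 0.67 SE, adjusted p = 0.980).

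**Figure D3:**
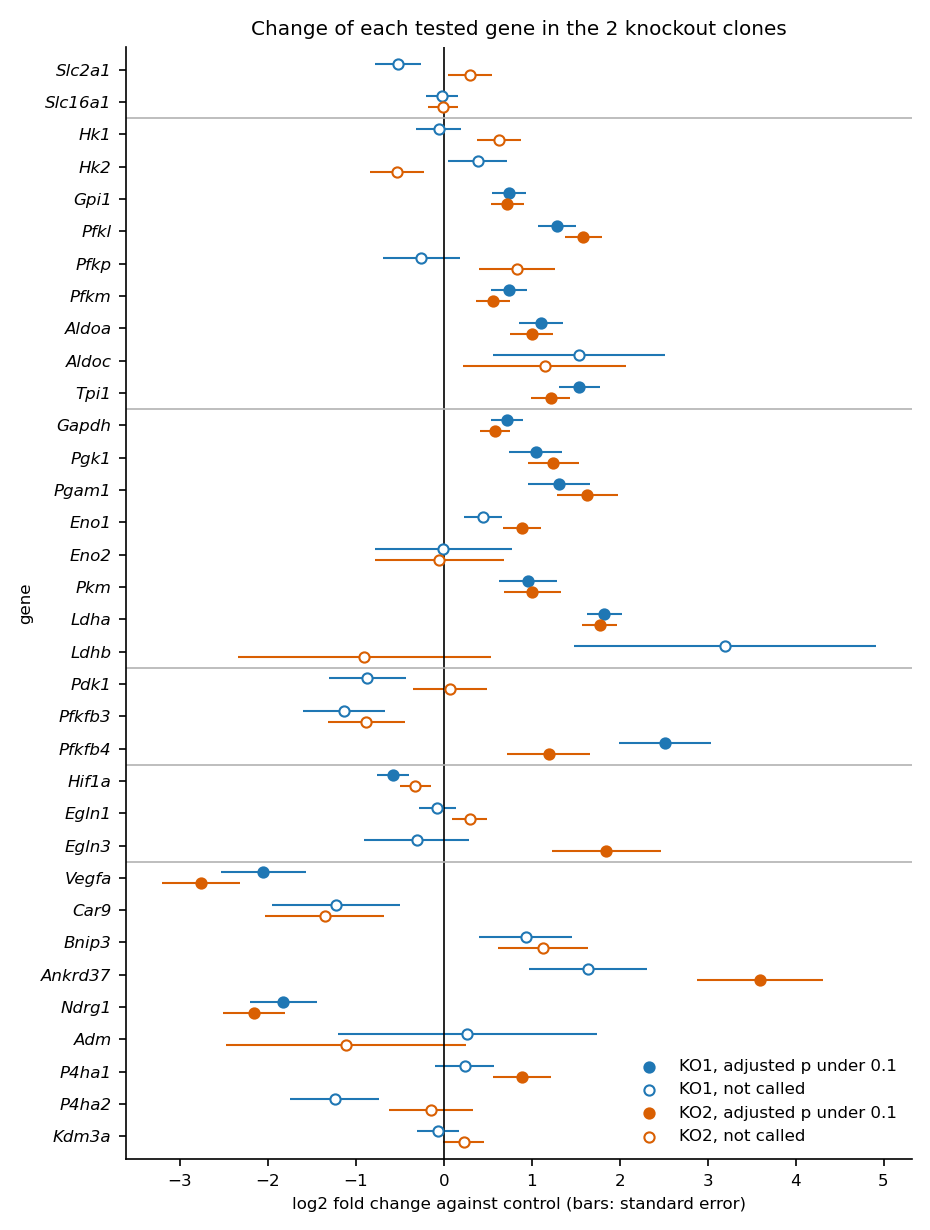
Points give the log2 fold change of the 34 tested genes in KO1 (blue) and KO2 (orange) against Control, bars the standard error, and filled points an edgeR adjusted p under 0.1. The filled points of the enzymes all lie right of 0, at 1.83 and 1.77 for Ldha, and the filled points left of 0 belong to Hif1a in KO1 and to Vegfa and Ndrg1 in both clones.

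The 3 kinases that set glycolytic flux did not move together. Pfkfb4, which makes the fructose bisphosphate that activates phosphofructokinase, was at 3.73 and 3.75 CPM in Control, 16.9, 19.4 and 28.1 CPM in KO1 and 8.03, 3.29, 12.3 and 10.6 CPM in KO2. It was called higher in KO (1.91 ± 0.68 SE, edgeR adjusted p = 0.089), with KO2 replicate 2 below Control, and higher in KO1 than in KO2 (1.32 ± 0.39 SE, edgeR adjusted p = 0.057). The call against Control was lost without any 1 of 6 libraries, among them both Control and all KO1 libraries and KO2 replicate 3, and the call between the clones without KO1 replicate 2, KO1 replicate 3 or KO2 replicate 1. Its relative Pfkfb3 had lower values in KO, from 35.4 and 32.6 CPM to 9.47, 19.1 and 17.8 CPM in KO1 and 19.3, 29.3, 17.5 and 7.83 CPM in KO2. No KO library overlapped with Control for Pfkfb3, but it was not called (-0.99 ± 0.39 SE, adjusted p = 0.120). Pfkfb3 was called lower by DESeq2 (adjusted p = 0.0896), with at least 10 counts in every library (edgeR adjusted p = 0.0989), in the 3-group fit (edgeR adjusted p = 0.0898) and without KO2 replicate 2 (edgeR adjusted p = 0.0443). Without overlap, 12 of the 34 genes lay higher and 5 lower in KO, where 16.9% of all genes tested lay higher in this way and 17.6% lower. Pdk1, which keeps pyruvate out of the mitochondrial citrate cycle and is a classical HIF target, was at 50.5 and 38.1 CPM in Control, between 21.2 and 27.8 CPM in KO1 and between 28.1 and 86.4 CPM in KO2, and was not called (-0.26 ± 0.48 SE, adjusted p = 0.746).

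The hypoxia factor itself was called lower in KO1. Hif1a was at 249 and 255 CPM in Control, 163, 183 and 161 CPM in KO1 and 158, 244, 218 and 185 CPM in KO2. The 7 KO values were all under both Control values, the gene was not called for all KO libraries together (-0.43 ± 0.18 SE, adjusted p = 0.137), and it was called lower in KO1 (-0.58 ± 0.18 SE, edgeR adjusted p = 0.050) but not in KO2 (-0.32 ± 0.17 SE, adjusted p = 0.209). The difference between the clones was not called (-0.25 ± 0.16 SE, adjusted p = 0.317), and the KO1 call was lost without either Control library, KO1 replicate 1 or KO1 replicate 3. For all KO libraries, Hif1a was called lower in the 3-group fit (edgeR adjusted p = 0.0674) and without KO2 replicate 2 (edgeR adjusted p = 0.0458). HIF-1α is regulated mostly as a protein, which these data do not measure. Egln1, the main prolyl hydroxylase, was at 110 and 121 CPM in Control and between 98.8 and 187 CPM in KO (0.15 ± 0.22 SE, adjusted p = 0.691). Egln3, a hydroxylase whose gene is itself induced by hypoxia, was at 34.3 and 24.2 CPM in Control, 19.1, 10.3 and 41.4 CPM in KO1 and 64.0, 56.1, 122 and 179 CPM in KO2. All KO2 libraries were above the other 5, and Egln3 was called higher in KO2 than in Control (1.85 ± 0.62 SE, edgeR adjusted p = 0.059) and lower in KO1 than in KO2 (-2.16 ± 0.54 SE, edgeR adjusted p = 0.034). The first of these calls was lost without either Control library, and the call between the clones without KO1 replicate 1 or KO1 replicate 2.

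Among the hypoxia-inducible genes, Vegfa and Ndrg1 fell. Vegfa (ENSMUSG00000023951, chromosome 17, 46016993 to 46032369), which encodes the angiogenic growth factor VEGF-A, was at 93.9 and 89.9 CPM in Control, 11.8, 35.5 and 19.3 CPM in KO1 and 22.8, 9.64, 13.3 and 8.52 CPM in KO2. The highest KO value, in KO1 replicate 2, was below both Control values, and the mean was 91.9 ± 2.81 CPM (SD, n = 2) in Control and 17.3 ± 9.56 CPM (SD, n = 7) in KO. Its log2 fold change was -2.41 ± 0.43 SE (edgeR adjusted p = 0.0066). Ndrg1 (ENSMUSG00000005125, chromosome 15, 66929318 to 66969640), a stress-responsive gene that is a common hypoxia marker, was at 415 and 468 CPM in Control, 127, 164 and 81.6 CPM in KO1 and 76.7, 77.3, 74.9 and 165 CPM in KO2 (-2.01 ± 0.32 SE, edgeR adjusted p = 0.0041). Both genes were called in each clone, and both kept their calls with any of the 9 libraries left out.

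Ankrd37, an ankyrin repeat gene induced by HIF-1, rose from a low level. It was at 0.702 and 0.336 CPM in Control, 1.85, 1.56 and 1.52 CPM in KO1 and 7.56, 2.61, 3.44 and 11.8 CPM in KO2, with every KO library above Control and every KO2 library above every KO1 library. The log2 fold change was 3.05 ± 1.00 SE (edgeR adjusted p = 0.068), and that of KO1 against KO2 was -1.95 ± 0.54 SE (edgeR adjusted p = 0.048). Ankrd37 overlaps Ufsp2 on the other strand (35.9 to 58.4 CPM, log2 fold change 0.44 ± 0.19 SE, adjusted p = 0.146), and without strand in the counting reads of the pair cannot be told apart where they overlap. The same holds for Pfkm with Senp1 (50.3 to 89.8 CPM), Tpi1 with Spsb2 (4.34 to 13.4 CPM), Pfkp with Pitrm1 (136 to 199 CPM) and Car9 with Gm12454 (0.421 to 2.70 CPM), the other genes with a partner of at least 1 CPM on the opposite strand. The call against Control was lost without either Control library and the call between the clones without any 1 of the KO1 libraries. The Ankrd37 value of 11.8 CPM came from KO2 replicate 4, which was also the highest of the 4 for Egln3, Pfkp, Pdk1, Bnip3 and P4ha1. The same held for other genes of different roles, such as Slc2a1, Gpi1, Pfkl, Ldha, Car9 and Ndrg1.

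**Figure D4:**
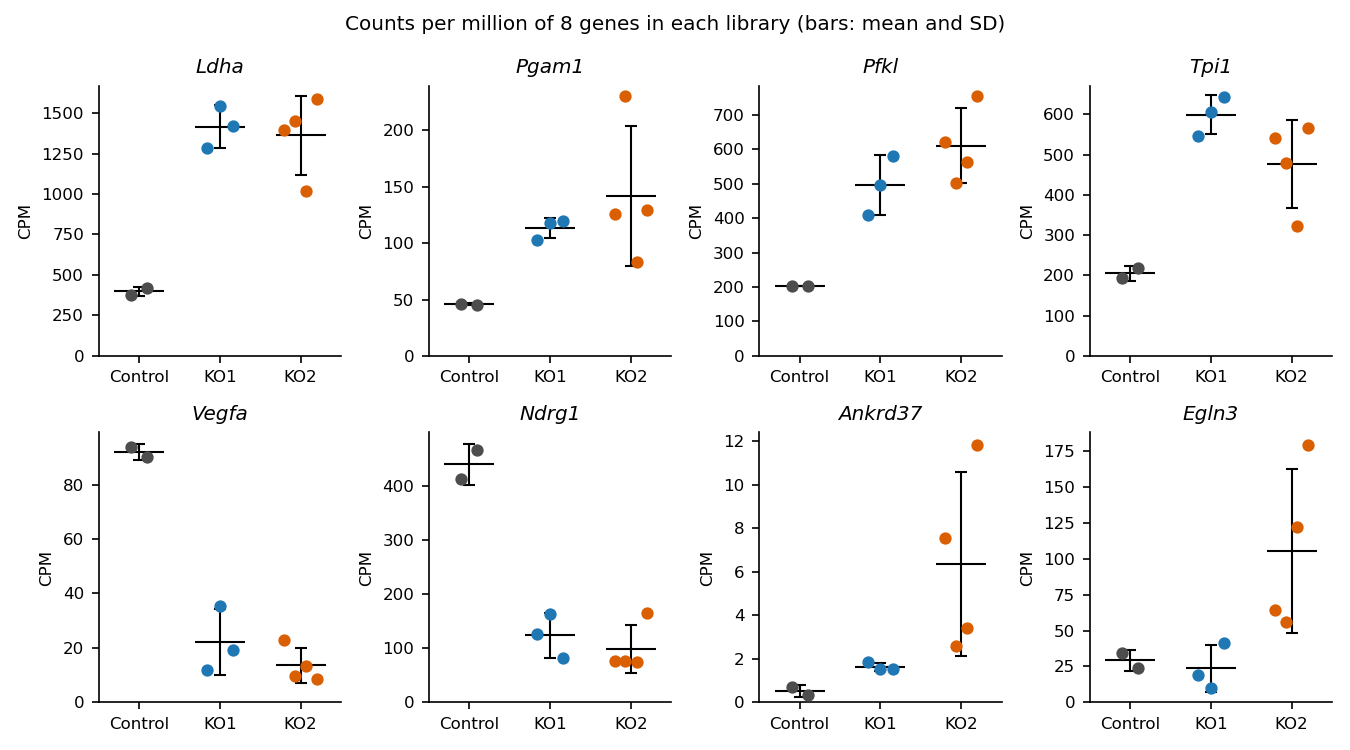
Each panel shows CPM of 1 gene in each of the 2 Control, 3 KO1 and 4 KO2 libraries as points, with the group mean and SD as a black bar, on axes that start at 0. Ldha lies between 1020 and 1587 CPM in the KO libraries against at most 419 CPM in Control, Vegfa lies at or below 35.5 CPM against 89.9 CPM or more, and Egln3 is above the other groups in KO2.

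The remaining hypoxia-inducible genes were not called for all KO libraries together. Car9, which encodes the membrane carbonic anhydrase CA9, was at 81.8 and 86.4 CPM in Control, 38.8, 28.5 and 40.6 CPM in KO1 and 12.6, 7.24, 41.6 and 69.7 CPM in KO2. All KO libraries were below Control, but the KO2 libraries differed 9.62-fold between lowest and highest (-1.30 ± 0.59 SE, adjusted p = 0.167). Car9 was called lower with the replicate number as a block (edgeR adjusted p = 0.0924) and without KO2 replicate 4 (edgeR adjusted p = 0.0830). Bnip3, a mitophagy receptor, was at 12.8 and 13.8 CPM in Control and between 11.2 and 55.8 CPM in KO (1.05 ± 0.48 SE, adjusted p = 0.166), and 45.2% of its exonic words occur elsewhere in the genome. DESeq2 called Bnip3 higher (adjusted p = 0.0844), as did edgeR without KO2 replicate 3 (adjusted p = 0.0744). The collagen prolyl hydroxylase P4ha1 was at 78.9 and 85.0 CPM in Control, between 92.4 and 105 CPM in KO1 and between 82.6 and 212 CPM in KO2, and it was called in KO2 (0.89 ± 0.33 SE, edgeR adjusted p = 0.079). That call was lost without either Control library, KO2 replicate 2 or KO2 replicate 4. Its relative P4ha2 was at 16.6 and 11.0 CPM in Control and between 4.43 and 16.4 CPM in KO (-0.52 ± 0.54 SE, adjusted p = 0.552). Adm, which encodes the vasoactive peptide adrenomedullin, lay between 0.0226 and 6.95 CPM in KO against 3.29 and 3.66 CPM in Control, and the histone demethylase gene Kdm3a between 59.8 and 107 CPM against 72.7 and 71.0 CPM.

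KO1 and KO2 differed in 8 of the 34 genes, 3 higher in KO1 (Hk2, Ldhb and Pfkfb4) and 5 lower (Slc2a1, Hk1, Pfkp, Egln3 and Ankrd37), where 19.6% of all genes tested were called between the clones, 9.43% higher in KO1 and 10.2% lower. The median over the 34 genes was -0.12, and over all genes tested -0.02. None of the 11 enzymes called against Control was among the 8. In the fit behind those calls the clones formed 1 group, so a difference between them counted as spread and made a call less likely. The lack of shared enzymes therefore does not show that the clones agree. The count was 2, 0 and 3 genes without KO1 replicates 1, 2 and 3 in turn and 13 without KO2 replicate 3. The share of all genes called moved with it, at 9.57, 5.79, 11.3 and 27.5%. For the count of 0, edgeR gave 9 of 34 genes an unadjusted p under 0.05, but no share of all genes at that cutoff is at hand to set beside it. DESeq2 on all libraries called 9 of the 34 genes, where it called 23.0% of all genes tested.

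Other genes of these pathways, listed by function, were called in KO at rates near the 22.6% of all genes tested. Of 29 further glycolysis genes tested, 4 were called higher and 3 lower (24.1%). Of 11 further oxygen sensing genes tested, 1 was called higher and 2 lower (27.3%), and of 36 further hypoxia-inducible genes tested, 3 were called higher and 4 lower (19.4%). Their median log2 fold changes were 0.16, 0.31 and -0.01. The genes with the largest changes called without overlap were the transferrin receptor gene Tfrc (2.25 ± 0.40 SE, edgeR adjusted p = 0.0063), the phosphofructokinase regulator Pfkfb1 (1.46 ± 0.31 SE, edgeR adjusted p = 0.013) and the cytokine gene Mif (1.34 ± 0.15 SE, edgeR adjusted p = 0.0012) among those higher. Those lower were the stanniocalcin gene Stc2 (-3.57 ± 1.22 SE, edgeR adjusted p = 0.077), the lactate carrier gene Slc16a8 (-1.91 ± 0.44 SE, edgeR adjusted p = 0.018) and the muscle phosphoglycerate mutase gene Pgam2 (-1.54 ± 0.43 SE, edgeR adjusted p = 0.038).

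The partners of Hif1a were measured as well. Arnt, the HIF-1β subunit, was at 94.0 and 133 CPM in Control, 57.1, 56.3 and 56.8 CPM in KO1 and 76.8, 59.0, 58.0 and 87.1 CPM in KO2 (-0.82 ± 0.21 SE, edgeR adjusted p = 0.026). Vhl, the substrate receptor of the ligase that removes HIF-1α, was at 36.6 and 37.3 CPM in Control, 21.7, 22.1 and 23.6 CPM in KO1 and 22.0, 15.9, 15.0 and 22.5 CPM in KO2 (-0.86 ± 0.20 SE, edgeR adjusted p = 0.020). Both lay below Control in all KO libraries. Bsg, the chaperone that carries lactate transporters to the membrane, was at 273 and 308 CPM in Control and between 429 and 653 CPM in KO (0.84 ± 0.19 SE, edgeR adjusted p = 0.016). The asparaginyl hydroxylase gene Hif1an (-0.29 ± 0.22 SE, adjusted p = 0.410) and the prolyl hydroxylase gene Egln2 (0.34 ± 0.20 SE, adjusted p = 0.282) were not called, and Epas1, the gene of HIF-2α, had 1 count in Control replicate 1, 1 in KO2 replicate 4 and 0 in the other libraries. The calls of Arnt, Vhl, Bsg, Pfkfb1, Pgam2 and Slc16a8 were lost without either Control library and that of Tfrc without Control replicate 2. Stc2 lost its call without either Control library, KO1 replicate 1, KO1 replicate 2, KO2 replicate 2 or KO2 replicate 3.

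MaTAR25 ChIRP-seq peaks were assigned to the gene of the nearest promoter, as the authors' annotation gives it. At least 1 peak was assigned to 20 of the 36 genes in the even list, 20 in the odd list, 21 in the 4T1 total list and 23 in the NDL total list. The shares were 55.6, 55.6, 58.3 and 63.9%, beside 52.9, 52.4, 59.6 and 58% of all genes tested. The sets are unlike in that all peak counts over the 36 genes include Slc2a3 and Slc16a3, which were not tested. Slc2a3 had peaks in all 4 lists and Slc16a3 in 3. The genes of glycolysis and hypoxia thus had peaks about as often as genes at large. A peak in all 4 lists was assigned to 17 of 36 genes (47.2%, against 34.4% of genes tested) and none in any list to 10 (27.8%, against 26.9%). The 17 genes had a median span of 31.6 kb and the 10 genes one of 7.57 kb, and over all genes tested the corresponding spans were 45.3 and 7.76 kb. Because replicates were pooled in each list, these shares have no test.

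The enzymes called higher differed in their peaks. Ldha, Tpi1, Aldoa, Gapdh and Pfkm had none in any list, Pfkl had 1 in the NDL total list and Pkm had peaks in the odd list alone. Pgam1 had peaks in 3 lists and Pgk1, Gpi1 and Eno1 in all 4. Of the 13 genes called higher, 3 had a peak in all 4 lists (Gpi1, Pgk1 and Eno1) and 5 in none, and both genes called lower, Vegfa and Ndrg1, had peaks in all 4. Over all genes tested, peaks in all 4 lists were assigned to 30.6% of those called higher and 38.9% of those called lower, and no peak in any list to 29.1 and 21.8%.

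A promoter peak at Gpi1 had a high score within each list. On chromosome 7, the 4T1 total list placed it from 34229252 to 34230130 (mm10) with a peak score of 571, which ranked 580 of 76806 peaks, and its centre lay 103 bases from the annotated start. The scores of this peak were 255 in the even list, 1242 in the odd list and 541 in the NDL total list, and scores of different lists are not on a shared scale. Peaks annotated as promoter were also assigned to Hk2 in all 4 lists, to Eno1 in the 3 lists of 4T1 cells, to Slc2a3 in 3 of the 4 lists, and in single lists to Pdk1, Pkm, Ldhb, Vegfa and Bnip3. Those of Eno1, Pdk1, Pkm, Ldhb and Vegfa lay inside the gene, near an internal transcript start. The Eno1 peak began at 150243256 in the 4T1 total list, where the gene starts at 150236721. The Vegfa peak ended at 46025195 in the NDL total list, where the gene starts at 46032369 on the minus strand. Promoter peaks were held by 5, 5, 4 and 5 of the 36 genes in the even, odd, 4T1 total and NDL total lists (13.9, 13.9, 11.1 and 13.9%), against 6.88, 6.38, 8.23 and 8.10% of genes tested. Slc2a3, which adds to these counts in 3 lists, is not among the genes tested. The strongest peak assigned to Ndrg1 in the 4T1 total list lay from 66975675 to 66976425 on chromosome 15, with a score of 592. Although annotated as intron, it lay upstream of Ndrg1, at -6410 bases from the start, as the gene starts at 66969640 on the minus strand. A Vegfa peak was found in all 4 lists upstream of the gene on chromosome 17, at 46044696 to 46045960 in the 4T1 total list, annotated as intergenic and at -12959 bases from the start, with a score of 186. The even list held no peak on chromosome 3, where Slc16a1 lies, and 13.7% of its peaks on chromosome 2, where Pdk1 and Pfkfb3 lie, against 7.26 to 7.38% in the other lists.

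**Figure D5:**
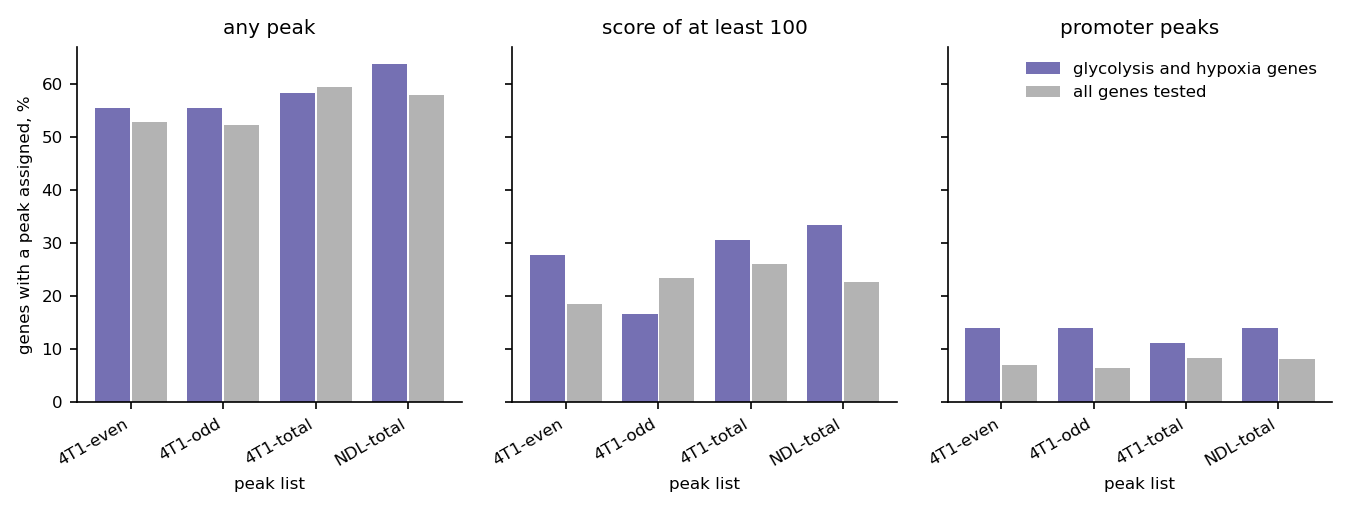
Bars give the percent of the 36 glycolysis and hypoxia genes (purple) and of the 15023 genes tested (grey) that had a peak assigned in each of the 4 lists, for all peaks, for peaks with a score of at least 100 and for peaks annotated as promoter. For all peaks the bars of both sets lie between 52.4 and 63.9%.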

How the data were processed

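Polyadenylated RNA of 4T1 Control, KO1 and KO2 cells and MaTAR25 ChIRP-seq peak lists were analysed. To make the deposited counts, which are whole numbers per gene and not normalized, the authors mapped reads to GRCm38 (mm10) with STAR and counted them on GENCODE vM5 genes with HTSeq. Whether strand was used in counting is not stated. The deposited peak scores are those of HOMER, computed by the authors over pooled replicates after mapping with Bowtie2, and their scaling is not given either. The table of KO2 replicate 2 repeats every gene in 3 equal entries, of which 1 was kept. Symbols, exon lengths and positions came from GENCODE vM21, which named 44585 of 45318 genes, and promoters from RefSeq (GRCm38.p6), where 34 of the 36 genes had an entry.

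Counts were tested in R 4.3.3 with edgeR 4.0.16 (filterByExpr, TMM, quasi-likelihood test, Benjamini-Hochberg adjustment over all genes tested, threshold 0.1 as in the study). All KO libraries were compared with Control in a fit of 2 groups, and the clones in a fit of 3 groups. DESeq2 1.42.0, the tool of the study, is an alternative. Levels are CPM with TMM library sizes, and log2 values use a pseudocount of 1. Each SE of an edgeR log2 fold change was derived as its absolute value over the square root of the test's F statistic. It is thus approximate, above all for fold changes near 0. Simulated counts served to test the fits. The 36 genes and all lists were chosen with earlier results of these data known. Named are all 36 genes, a few fixed partners of the pathway and, from the further lists, the 3 genes that rose and the 3 that fell most among those called with at least 1 CPM on average and no overlap. Eno3 is named only beside the share of Eno1. Python 3.11.15 was used for peaks and promoters. Alternatives were other scaling, filters and thresholds, the replicate number as a block, other groupings in the fit, leaving out each library, and other ways to assign peaks.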

Additional observations from a re-analysis of the deposited data

Results flagged for a closer look

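In KO2, a single library stood apart for 2 of the 34 genes, where about 1 in 20 groups is expected by chance. Gpi1 was at 422 CPM in KO2 replicate 4 against 294 to 299 CPM in the other KO2 libraries. Ndrg1 was at 165 CPM in KO2 replicate 4 against 74.9 to 77.3 CPM in the others, and it was called lower in KO2 with any of its libraries left out.

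The clones differed by edgeR's test of the difference itself for 8 of the 34 genes (23.5%), near the 19.6% of all genes tested that were called between them. The log2 fold changes of KO1 against KO2 were -0.82 for Slc2a1, -0.68 for Hk1, 0.92 for Hk2, -1.09 for Pfkp, 4.10 for Ldhb, 1.32 for Pfkfb4, -2.16 for Egln3 and -1.95 for Ankrd37. Each of these 8 calls was lost with at least 1 of the KO1 libraries left out.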

How the results depend on the processing

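Leaving out 1 library at a time gave 4 to 18 genes called in KO against Control (15 with all), 6 to 14 in KO1 (14), 6 to 20 in KO2 (17) and 0 to 13 between the clones (8). Each lowest count against Control came without a Control library, and the 0 without KO1 replicate 2. Without Control replicates 1 and 2 in turn, 6 and 7 genes were called in KO1 (9.46 and 11.1% of all genes) and 7 and 6 in KO2 (8.72 and 9.15%). In the fit of only the groups compared, 24 genes were called in KO1 and 5 between the clones (54.1 and 13.6% of all genes), and at a threshold of 0.05, 3 between the clones (10.9%). With the replicate block, which treats equal replicate numbers as paired, 13, 21, 15 and 5 genes were called in the same order (13, 26.5, 24.6 and 11.6% of all genes), but the deviations of same-numbered libraries correlated at only -0.20 to 0.06, which did not meet the criterion for paired libraries. DESeq2 called 17, 17, 19 and 9 genes (28.1, 33.7, 33.6 and 23.0%). The shares of all genes with every library in edgeR were 22.6, 31.6, 31.4 and 19.6%. Ldha, Pfkl, Vegfa and Ndrg1 kept their calls against Control in all alternatives run, for all KO libraries and for each clone. Values near 0 changed sign, with Slc2a1 at -0.0088 with no filter, -0.0090 with at least 10 counts in every library, -0.14 with the replicate block, -0.11 in the 3-group fit and -0.16 to 0.11 with a library left out. With a library left out, Slc16a1 lay at -0.061 to 0.040, Hk2 at -0.24 to 0.073 and Eno2 at -0.41 to 0.38, and Adm was at 0.23 with the replicate block. The causes were not tested. At a peak score of at least 100, 10, 6, 11 and 12 genes had a peak in the even, odd, 4T1 total and NDL total lists (27.8, 16.7, 30.6 and 33.3%, against 18.5, 23.4, 26.1 and 22.6% of genes tested). With peaks in the gene body or 5 kb before its start, 16, 18, 18 and 18 genes had one (44.4% in the even list and 50% in the others, against 52.1, 51.4, 59.1 and 57.9%). With promoter peaks only, an alternative chosen after seeing the data, the counts were 5, 5, 4 and 5.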
